A study of Mus musculus with 14 samples.

Results

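The comparison described here is the difference in RNA levels between Sir2OE1 and Sir2OE2, a pair of independently made lines of the mouse pancreatic beta-cell line MIN6 that both carried an extra mouse Sirt1 gene. It uses the 7 arrays titled with these lines, 3 of Sir2OE1 and 4 of Sir2OE2, out of 14 arrays in the series, and all 23230 probes that could be tested. MIN6 cells secrete insulin and were used at passage 24. Each line was infected with the retrovirus pBabe-Sirt1, which also carries neomycin resistance, and was selected in G418 at 280 micrograms per ml. Each array set one line in one channel against pooled RNA of Neo1 and Neo2, control lines infected with the pBabe-neo virus, in the other channel. All lines had grown in medium with 5 mM glucose for 4 days. The other 7 arrays, of the Sirt1 knockdown lines Sir2KD1 and Sir2KD2 (selected in G418 at 400 micrograms per ml) against the empty-vector line mU6pro, entered the fit to estimate the spread between arrays.

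Sirt1 is an NAD-dependent deacetylase that removes acetyl groups from histones and from transcription factors. In beta cells it is known for a part in glucose-stimulated insulin secretion. A retrovirus inserts at different genome positions in different cells, and established lines also drift apart in culture, so a pair of lines made with the same virus need not share every change. Since the Neo pool was the partner of both lines, its RNA level cancels when the value of one line is subtracted from the value of the other. The comparison therefore asks which transcripts separate the lines, whatever their level in the control. Each line stands for 1 infected culture, and nothing says that slides of the same line came from separate cultures. P-values thus reflect only how arrays vary, possibly for technical reasons.

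The values are log2 ratios of the channels of an array, deposited with a constant removed from each probe. Over the 7 overexpression arrays, values of each probe summed to 0 without Sir2OE1 slide 2, the 6 summed arrays being evenly split between both channel arrangements. Undoing this gave ratios that were whole percents for 100% of probes, up to a factor common to the arrays of a probe. Median values of single overexpression arrays ran from -0.0093 to 0.0165. Ratios carry no level, so the beta-cell identity of the cells could not be checked from marker levels, and signal over background is unknown. Array values were turned by the channel that held the line, as if channel 2 had been on top of the ratio. A value on the plus side means more RNA in the line than in the Neo pool if that was so, and less if channel 1 was on top. The sources used here do not settle this, so sides are given as plus and minus. Statements that the lines lay on opposite sides, or that one lay further from the pool, hold either way.

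The genes of largest difference in each direction show what the turn does. For 9230117E06Rik, the ratio in Sir2OE2 was 1113% and 1450% on the arrays with the line in channel 2 and 7% and 10% on the arrays with the line in channel 1. In Sir2OE1 it was 110%, 86% and 154%. For Kansl1l, the ratio in Sir2OE1 was 572% and 683% with the line in channel 2 and 12% with the line in channel 1. The Sir2OE2 arrays gave 80%, 84%, 115% and 119%. In each gene the ratio of the line further from the pool thus turned over when the channels were exchanged. Both were chosen from turned values, which required this, so they are no support for the turn. Over all probes, a fit with a dye term for each line called 57 differences in the turned values and 1 in the values as deposited, with limma at an adjusted p under 0.05. At an unadjusted p under 0.05 there were 1748 and 1789. Among 69 probes whose arrays of one line and channel lay within 0.5 of each other and whose difference was at least 1 in either channel arrangement, 58 changed the sign of the deposited difference with the channels and 11 kept it. At a difference of at least 1.5, 16 of 16 changed sign. Without the limit on array spread, 297 of 533 changed sign at a difference of at least 1. These limits were set after the values were seen.

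Of 23230 probes, 75 differed between the lines (limma, Benjamini-Hochberg adjusted p under 0.05), which is 0.323% of those tested. The turned ratio was higher in Sir2OE2 for 49 of them, 0.211% of those tested, and higher in Sir2OE1 for 26, 0.112%. The absolute difference ran from 0.87 to 3.91 on the log2 scale with a median of 1.56, which is a fold of 2.95. Over all probes the median absolute difference was 0.21 and the median SE 0.29. None of the 75 had overlapping arrays between the lines, where 12.6% of all probes had arrays that did not overlap. Calling them on these same arrays had required this in large part, so it is no separate support. Unadjusted p-values under 0.05 numbered 1738, beside 1161.5 for a share of 0.05. Without any 1 of the 7 arrays the count was lower. It was 42, 20 and 34 without Sir2OE1 slides 1, 2 and 3, and 23, 18, 35 and 41 without Sir2OE2 slides 1, 2, 3 and 4. With only the 7 overexpression arrays in the fit, 23 were called. The 75 differences all kept their sign without any 1 array, which their lack of overlap nearly fixed in advance. In 14 of them the call was also kept in each of those 7 fits: 9230117E06Rik, Dlk1, Upk3a, Stmn2, Csn3, Sod3, Pttg1, Rgs3, Necab2, Atad3a, Defb41, Kansl1l and 2 probes without a single gene name.

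**Figure D1:**
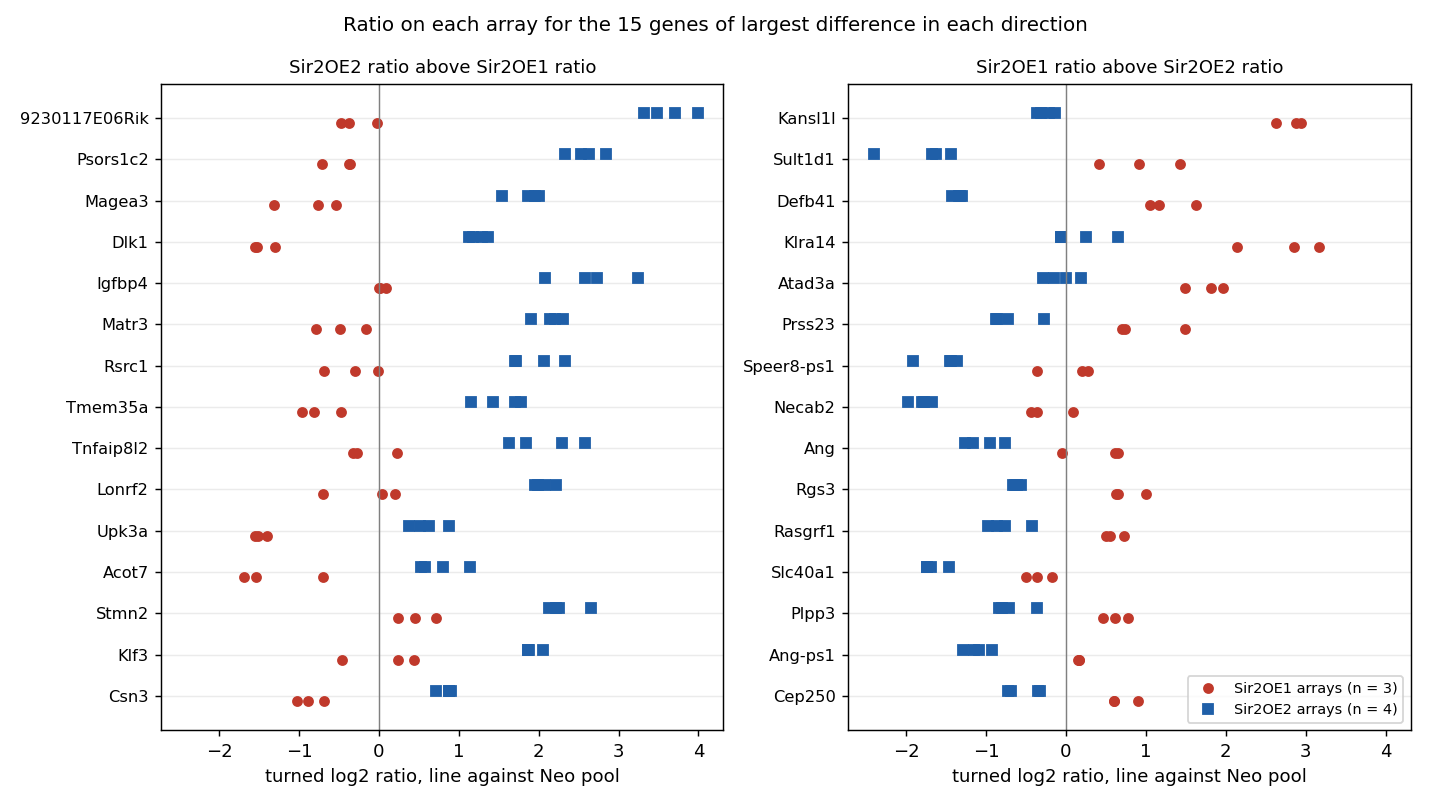
Turned log2 ratio against the Neo pool on every overexpression array (horizontal axis) for the 15 named genes of largest difference in each direction, with 1 row per gene, circles for the 3 Sir2OE1 arrays and squares for the 4 Sir2OE2 arrays. Circles and squares do not overlap in any row, as the choice of genes required. In the left panel 9230117E06Rik has its Sir2OE2 arrays between 3.32 and 3.99 and its Sir2OE1 arrays between -0.47 and -0.02.

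By the sign of the fitted ratio alone, the lines lay on different sides of the Neo pool for 54 of the 75 and on the same side for the others. The 54 include lines close to the pool, as Atad3a in Sir2OE2 at -0.06 with an SE of 0.12. Choosing probes by a large difference favours different sides, and the share over all probes was not taken. Sir2OE2 was the line further from the pool for 50 probes and Sir2OE1 for 25. By each line's own test against the pool, 49 were called in Sir2OE2 alone, 11 in Sir2OE1 alone, 2 in both on the same side, 8 in both on opposite sides and 5 in neither. Of all probes, 2.81% were called in Sir2OE2 and 1.06% in Sir2OE1. A line that missed this test was not thereby near the pool, as in Plpp3 at 0.62 in Sir2OE1 and -0.68 in Sir2OE2, of which only the second was called. Both ratios share the pool, and its RNA level enters either of them and cancels in the difference. Error in reading the pool on single arrays does not cancel.

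**Figure D2:**
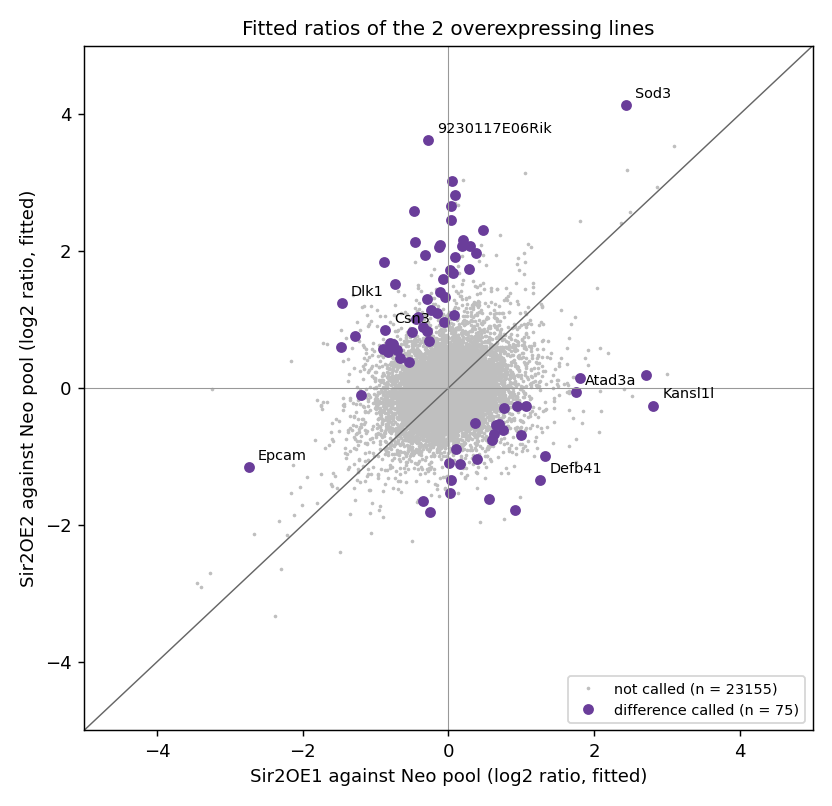
Fitted log2 ratio against the Neo pool in Sir2OE1 (horizontal axis) and Sir2OE2 (vertical axis) for all 23230 tested probes, with the 75 probes called between the lines as large points and equal ratios on the diagonal line. Called probes lie off the diagonal, and Dlk1 (-1.46 and 1.24) and Defb41 (1.26 and -1.35) lie in opposite corners.

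A set of 8 probes passed the test against the pool in both lines and on opposite sides, which is 0.0344% of all probes. The difference between the lines was called for each of the 8. Passing both tests on opposite sides nearly fixes that call, so it is no separate support. Of the 7 with a single gene name, Dlk1, Csn3, Upp1, Gsdma and Pttg1 were on the plus side in Sir2OE2, and Rgs3 and Defb41 on the plus side in Sir2OE1. RefSeq promoter windows of GRCm38.p6, from 250 bases before to 50 after the start of a gene, were found for 42 of the 58 genes among the called probes and for 5 of these 7. The windows of the 3 genes with 1 listed start are shown because these genes separate the lines most simply, by opposite sides. Capitals mark matches on either strand to TATAAA (the TATA box), CCAAT (bound by NF-Y), GGGCGG (bound by Sp1), CACGTG (an E-box) or TTCNNNGAA (the core of STAT sites), and only Defb41 has one, a TTCNNNGAA from base 144 of the window.
Dlk1, chr12:109452573-109452872, plus strand: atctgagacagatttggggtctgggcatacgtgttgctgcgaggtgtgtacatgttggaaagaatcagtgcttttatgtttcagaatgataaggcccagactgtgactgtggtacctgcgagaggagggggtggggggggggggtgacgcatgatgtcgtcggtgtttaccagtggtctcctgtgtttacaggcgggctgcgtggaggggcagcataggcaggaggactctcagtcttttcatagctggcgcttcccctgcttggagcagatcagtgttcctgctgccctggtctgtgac
Defb41, chr1:18265089-18265388, minus strand: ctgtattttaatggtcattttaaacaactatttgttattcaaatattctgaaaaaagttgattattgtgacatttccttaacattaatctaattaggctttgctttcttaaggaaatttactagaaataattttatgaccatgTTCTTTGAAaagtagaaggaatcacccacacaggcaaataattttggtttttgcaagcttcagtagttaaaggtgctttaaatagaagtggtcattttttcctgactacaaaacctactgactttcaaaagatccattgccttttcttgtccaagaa
Pttg1, chr11:43425932-43426231, minus strand: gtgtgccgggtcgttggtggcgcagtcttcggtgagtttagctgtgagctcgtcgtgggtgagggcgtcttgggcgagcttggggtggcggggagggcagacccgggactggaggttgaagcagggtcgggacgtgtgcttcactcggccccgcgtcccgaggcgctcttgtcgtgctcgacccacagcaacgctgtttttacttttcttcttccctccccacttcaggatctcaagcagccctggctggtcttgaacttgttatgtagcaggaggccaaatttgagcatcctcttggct
The G and C share of the windows differed, at 55.7% for Dlk1, 29.7% for Defb41 and 60.3% for Pttg1. Over the 58 windows of called genes, 12.07% held TATAAA, 29.31% CCAAT, 48.28% GGGCGG, 6.9% CACGTG and 5.17% TTCNNNGAA. Over all 32851 windows the shares were 13.62%, 37.41%, 35.66%, 7.15% and 8.3%. The windows are listed by gene, and some genes have several that overlap. No test was made of these shares, and a match is a description of letters only.

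Dlk1, an imprinted gene for a membrane protein that restrains adipocyte differentiation and is abundant in endocrine cells, had the largest difference of these. Its turned ratio was -1.52, -1.30 and -1.55 on the Sir2OE1 arrays and 1.29, 1.18, 1.13 and 1.37 on the Sir2OE2 arrays. Every Sir2OE1 array was thus on the minus side and every Sir2OE2 array on the plus side. The difference was -2.70 ± 0.19 (SE, n = 3 and 4 arrays), a fold of 6.52, with limma adjusted p = 0.00031. Defb41, of the beta-defensin family of antimicrobial peptides, was the reverse. It read 1.17, 1.62 and 1.05 in Sir2OE1 and -1.32, -1.43, -1.34 and -1.29 in Sir2OE2, a difference of 2.61 ± 0.19 (SE) with limma adjusted p = 0.00031. The lines lay on opposite sides on every array.

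Csn3, kappa-casein of milk, was at -0.88, -0.68 and -1.03 in Sir2OE1 and 0.71, 0.90, 0.88 and 0.88 in Sir2OE2. The lines lay at nearly equal distances from the pool, and the difference was -1.72 ± 0.18 (SE) with limma adjusted p = 0.00526. Pttg1 encodes securin, which holds separase inactive until chromosomes part. It was at -0.87, -1.01 and -0.65 against 0.45, 0.70, 0.48 and 0.45, a difference of -1.35 ± 0.16 (SE) with limma adjusted p = 0.00653. Rgs3, which speeds GTP hydrolysis by G-protein alpha subunits, was at 0.63, 1.01 and 0.66 in Sir2OE1 and -0.66, -0.56, -0.61 and -0.64 in Sir2OE2. Its difference was 1.37 ± 0.15 (SE) with limma adjusted p = 0.00573. The other Rgs3 probe was not called, with a difference of 0.07. Upp1, a uridine phosphorylase of pyrimidine salvage, differed by -1.47 and Gsdma, of the pore-forming gasdermins, also by -1.47, with limma adjusted p of 0.0165 and 0.00653. In Sir2OE1 these were at -0.81 and -0.90, and in Sir2OE2 at 0.67 and 0.57. Upp1 was called in 1 of the 7 fits without an array and Gsdma in 6. The probe without a single gene name was at 1.32 in Sir2OE1 and -0.99 in Sir2OE2.

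The largest group was the 49 probes called against the pool in Sir2OE2 alone, with 36 on the plus side there and 13 on the minus side. Its first gene, 9230117E06Rik, had the largest difference of all. The turned ratio was -0.02, -0.37 and -0.47 on the Sir2OE1 arrays and 3.32, 3.70, 3.99 and 3.48 on the Sir2OE2 arrays. The arrays of Sir2OE1 stayed near the pool while all 4 arrays of Sir2OE2 were more than 3 from it. The difference was -3.91 ± 0.27 (SE, n = 3 and 4) with limma adjusted p = 0.00031. Its lowest ratio was 7%, where a step of 1 percent is coarse. Igfbp4, a binding protein that limits the action of insulin-like growth factors, was at 0.02, 0.09 and 0.01 in Sir2OE1 and 2.73, 2.57, 3.24 and 2.07 in Sir2OE2. The difference of -2.62 ± 0.33 (SE) had limma adjusted p = 0.00916, and it was called in 3 of the 7 fits that left out an array. Psors1c2 differed by -3.05 ± 0.38 (SE), Magea3, of the MAGE family normally silent outside germ cells, by -2.72 ± 0.33, and Matr3, an RNA-binding protein of the nuclear matrix, by -2.60 ± 0.40. Their limma adjusted p-values were 0.00842, 0.00842 and 0.0264. Matr3 was not called in any fit without 1 array.

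Other genes of this group had varied roles. Stmn2, a neuronal protein that frees tubulin from microtubules, was at 0.24, 0.45 and 0.72 in Sir2OE1 and 2.65, 2.22, 2.26 and 2.13 in Sir2OE2. The groups did not overlap, with a difference of -1.85 ± 0.20 (SE) with limma adjusted p = 0.00601. Gng3, a G-protein gamma subunit of neurons, was at 0.07 in Sir2OE1 and 1.68 in Sir2OE2. The secreted guidance factor Sema3c had a pair of called probes, at 0.39 and 0.02 in Sir2OE1 and 1.97 and 1.72 in Sir2OE2. Tmem35a differed by -2.25, Lonrf2 by -2.18, Tnfaip8l2 by -2.20 and Rsrc1 by -2.27. Klf3, a zinc-finger repressor, was at 0.10 in Sir2OE1 and 1.91 in Sir2OE2, with limma adjusted p = 0.0336 for the difference. It was called in 1 of the 7 fits without an array. Smaller differences included Ldha, the lactate dehydrogenase that beta cells normally keep very low. It was at -0.64, -0.46 and -0.41 in Sir2OE1 and 0.98, 0.79, 0.87 and 0.67 in Sir2OE2. The difference of -1.33 ± 0.19 (SE) had limma adjusted p = 0.0199, and Ldha was called in 1 of the 7 fits without an array. The chaperone Clu differed by -1.13 and S100a10, the annexin partner, by -0.99.

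Among probes called in Sir2OE2 alone and on the minus side there, Necab2, a calcium-binding protein of neurons, was at -1.98, -1.68, -1.80 and -1.78, against -0.36, 0.09 and -0.44 in Sir2OE1. The difference was 1.56 ± 0.18 (SE) with limma adjusted p = 0.00657. Sult1d1, a sulfotransferase, had a larger difference and a wider spread, at 0.41, 0.91 and 1.43 in Sir2OE1 and -1.62, -1.43, -2.40 and -1.68 in Sir2OE2. It differed by 2.70 ± 0.35 (SE) with limma adjusted p = 0.00987 and was called in 4 of the 7 fits without an array. The ribonuclease angiogenin gene Ang was at 0.40 in Sir2OE1 and -1.03 in Sir2OE2, and its pseudogene Ang-ps1 at 0.16 and -1.11. The sequences are related, so either probe may also bind RNA of the other gene. Rasgrf1, an imprinted exchange factor for Ras, was at 0.60 and -0.75, the lipid phosphatase Plpp3 at 0.62 and -0.68, and the iron exporter Slc40a1 at -0.35 and -1.66. Slc40a1 had the largest adjusted p of all 75, 0.0471, and was called in none of the 7 fits without an array. Plpp3 was called in 1 of those fits and Rasgrf1 in 3. Speer8-ps1 was at 0.03 and -1.54.

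A further 11 probes were called against the pool in Sir2OE1 alone. Kansl1l was at 2.63, 2.88 and 2.95 in Sir2OE1 and -0.21, -0.14, -0.31 and -0.36 in Sir2OE2. All 3 arrays of the first line were thus high, and the second line stayed close to the pool on the other side. The difference of 3.07 ± 0.27 (SE) is a fold of 8.41, with limma adjusted p = 0.00178. Atad3a, a mitochondrial inner-membrane ATPase, was at 1.75 in Sir2OE1 and -0.06 in Sir2OE2, a difference of 1.81 ± 0.19 (SE) with limma adjusted p = 0.00526. Klra14, of the natural killer cell receptor family, differed by 2.52 ± 0.43 (SE) with limma adjusted p = 0.0440, and no fit without 1 array called it. On the minus side in Sir2OE1, Upk3a, a uroplakin of the bladder lining, was at -1.39, -1.55 and -1.51, against 0.51, 0.63, 0.38 and 0.88 in Sir2OE2. Its difference was -2.08 ± 0.22 (SE) with limma adjusted p = 0.00526. Acot7, a thioesterase of long acyl-CoAs, differed by -2.05 ± 0.31 (SE), and the tetraspanin Tspan6 by -1.10. Acot7 was called in 1 of the 7 fits without an array. Msmo1, an enzyme of cholesterol synthesis, was at 0.95 in Sir2OE1 and -0.26 in Sir2OE2, a difference of 1.21 ± 0.16 (SE) with limma adjusted p = 0.0105.

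In Sod3 and Epcam both lines were called on the same side of the pool and differed in size. Sod3, the extracellular superoxide dismutase, was at 2.12, 2.75 and 2.49 in Sir2OE1 and 4.35, 4.10, 4.17 and 3.91 in Sir2OE2. The difference of -1.69 ± 0.19 (SE) is a fold of 3.24, with limma adjusted p = 0.00653. Its lowest ratio was 5%. Epcam, an adhesion molecule of epithelial cells, was further from the pool in Sir2OE1, at -2.63, -2.63 and -2.93, than in Sir2OE2, at -1.23, -1.23, -1.10 and -1.04. Its difference was -1.59 ± 0.22 (SE) with limma adjusted p = 0.0169, and no fit without 1 array called it. Neither line was called on its own for Ucn3, which beta cells secrete once mature, at -0.70 and 0.56. The same held for Myt1, a zinc-finger factor of endocrine precursors, at 0.65 and -0.54, and for the protease gene Prss23 at 0.99 and -0.68. Cep250, of the centrosome, was at 0.69 and -0.52, and Nt5c3b at -0.54 and 0.38. The differences were called for all 5, with limma adjusted p between 0.0306 and 0.0370. Of the 7 fits without an array, 0 called Myt1 or Cep250, and 1 each called Ucn3 and Prss23. The other Ucn3 probe was not called, with a difference of 0.22.

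**Figure D3:**
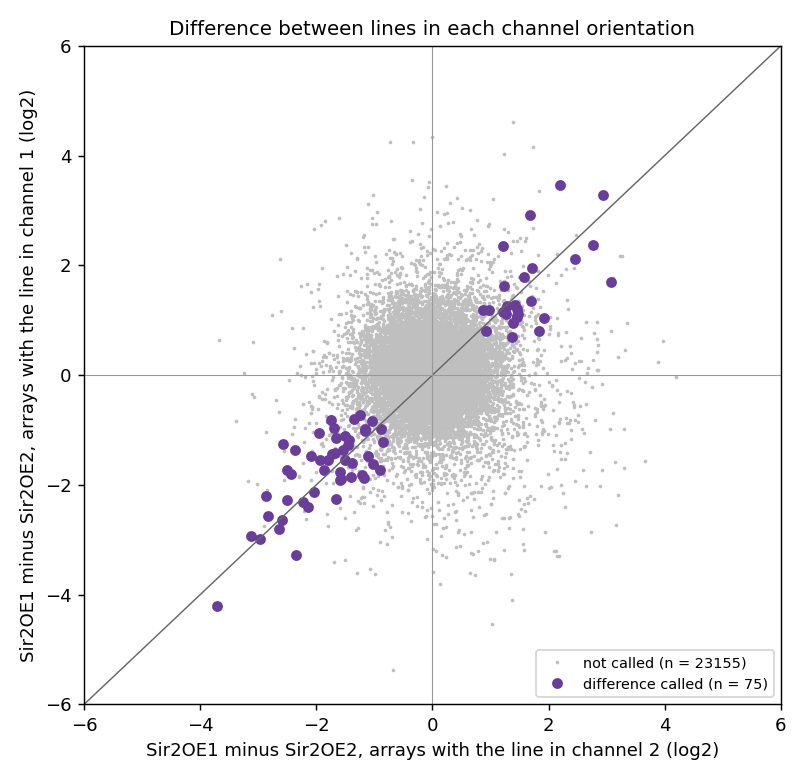
Sir2OE1 minus Sir2OE2 on the log2 scale from the arrays with the line in channel 2 (horizontal axis, 2 arrays of each line) and from the arrays with the line in channel 1 (vertical axis, 1 array of Sir2OE1 and 2 of Sir2OE2), for all tested probes, with the 75 called probes as large points. All 75 called probes lie in the corners where both channel arrangements have the same sign, while the cloud of other probes has no slope to the eye.

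The difference was also taken within arrays of the same channel arrangement, where the constant removed from each probe cancels. All 75 called probes had the same turned sign in both arrangements, and calling them had required this in large part. For Dlk1 the difference was -2.64 with the line in channel 2 and -2.80 with the line in channel 1, and for Kansl1l 2.93 and 3.29. Across all 23230 probes, which are not independent replicates, the arrangements had Pearson r = 0.013. Over the 75 it was 0.95, which follows from how they were chosen.

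Sirt1 itself was not called between the lines. Its probe was at -0.08, 0.21 and 0.13 on the Sir2OE1 arrays and -0.20, -0.36, -0.28 and -0.49 on the Sir2OE2 arrays. The arrays of the lines did not overlap, as for 12.6% of all probes. The difference was 0.41 ± 0.15 (SE) with limma adjusted p = 0.504. Neither line was called against the pool, at 0.08 in Sir2OE1 (limma adjusted p = 0.933) and -0.33 in Sir2OE2 (limma adjusted p = 0.131). The sources used here do not say whether this probe reads the virus-borne Sirt1 gene, so no amount of added Sirt1 is compared. Of 16 measured genes of sirtuins and NAD supply, 0 were called between the lines, beside 0.323% of all probes. Their differences lay between -0.36 and 0.47. Sirt3, the main mitochondrial sirtuin, was at 0.17 in Sir2OE1 and -0.31 in Sir2OE2, and Nampt, which makes NAD from nicotinamide, at 0.18 and -0.10.

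**Figure D4:**
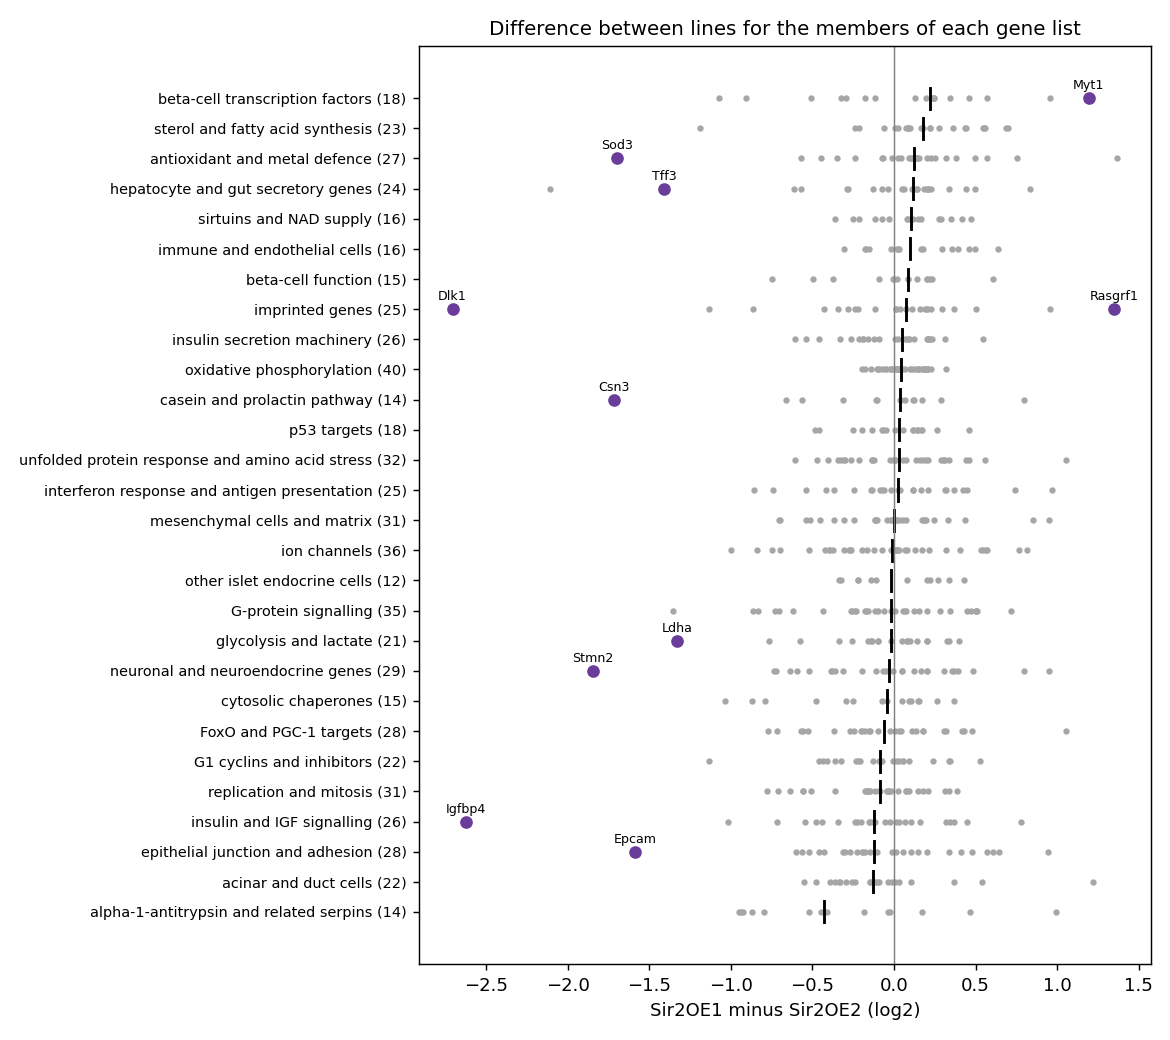
Sir2OE1 minus Sir2OE2 on the log2 scale (horizontal axis) for every measured member of 28 gene lists (1 row per list, number of measured genes in brackets), with small points for members that were not called, large labelled points for called members and a bar at the list's median. Medians lie between -0.43 and 0.22 and the 10 called genes are spread over 9 lists.

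Over 28 gene lists with 642 measured genes, each read from its probe of lowest number, 10 genes were called, which is 1.56% beside 0.323% of all probes. The lists were drawn up with earlier results of these data known, so this share is not independent evidence. Called members were Dlk1 and Rasgrf1 of 25 imprinted genes, Sod3 of 27 antioxidant genes, and Csn3 of 14 genes of casein and the prolactin pathway. Others were Epcam of 28 epithelial genes, Ldha of 21 glycolysis genes, Igfbp4 of 26 insulin and IGF signalling genes, Myt1 of 18 beta-cell transcription factors, Stmn2 of 29 neuronal genes and Tff3 of 24 hepatocyte and gut genes. No list had more than 2 called members. With 0.323% of all probes called, 0 called in a list of this kind says little about its members. The median difference over all probes was 0.01.

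Among beta-cell genes, Myt1 and 1 of the Ucn3 probes were called between the lines. Of the 7 fits without an array, 0 called Myt1 and 1 called this Ucn3 probe. Of 15 measured genes of beta-cell function 0 were called, each gene read from its probe of lowest number, beside 0.323% of all probes. Ins2, insulin, differed by 0.14 ± 0.24 (SE), but its percents were, within 1, those of a set of 329 probes on at least 5 arrays. Such values are not read here as a measurement, though these probes stayed in the fit and in the list counts. Of the 15 genes of beta-cell function, 4 belonged to this set. The convertase Pcsk1, at 0.78 in both lines, had a difference of 0.00172 with an SE of 0.17. The glucose transporter Slc2a2 was at -0.90 in Sir2OE1 and -1.50 in Sir2OE2, a difference of 0.61 ± 0.21 (SE) with limma adjusted p = 0.437. Among the 18 transcription factors, only Myt1 was called, with a median of 0.22 for the list. Isl1 lay just outside the threshold, at 0.70 and -0.26 and with limma adjusted p = 0.0576 for a difference of 0.96. The difference was 0.25 for Pdx1, 0.46 for Neurod1, 0.57 for Pax6 and -0.32 for Nkx6-1. In the insulin secretion machinery, 0 of 26 genes were called, with differences between -0.61 and 0.55, and 4 of the 26 belonged to the set of 329 probes.

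Markers of other cells were examined in the same way. The numbers called were 0 of 12 for other islet endocrine cells, 0 of 22 for acinar and duct cells, 0 of 31 for mesenchymal cells and matrix, and 0 of 16 for immune and endothelial cells. With 0.323% of all probes called, 0 is the likely count in lists of these sizes. Among hepatocyte and gut genes, Tff3, a mucosal trefoil peptide, was at -0.76 in Sir2OE1 and 0.64 in Sir2OE2. The retinol carrier Rbp4 was not called, at -0.69 and 1.42 with limma adjusted p = 0.0735. Ratios give no marker's level, and the part of other cell types in the differences was not tested.

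Uncalled members of a list could lie on either side. The 5 alpha-1-antitrypsin genes Serpina1a to Serpina1e were at 0.95, 1.04, 0.95, 1.05 and 1.13 in Sir2OE1 and 1.90, 1.98, 1.82, 1.84 and 2.06 in Sir2OE2. Their differences lay between -0.95 and -0.80, with limma adjusted p between 0.229 and 0.511. Since the paralogs are nearly the same in sequence, the probes may not be separate measurements. Serpinb1a went the other way, at 0.55 and -0.44, and was not called. The list of 14 serpins had the lowest median, -0.43, with 0 called and differences between -0.95 and 0.99. Of 23 genes of sterol and fatty acid synthesis 0 were called, with a median of 0.18 and differences between -1.19 and 0.70. The ends of this range were Acaca, at -0.51 and 0.68, and Fdps, at 0.55 and -0.15. With the probe of highest number for each gene, the lowest difference of this list was -0.21. Another Acaca probe thus did not share the -1.19. In cell division, 0 of 31 replication and mitosis genes and 0 of 22 G1 cyclins and inhibitors were called, beside 0.323% of all probes. For 40 genes of oxidative phosphorylation differences lay between -0.19 and 0.32 with 0 called, and 16 of them belonged to the set of 329 probes that Ins2 is in.

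The lists of interferon response (25 measured), p53 targets (18), FoxO and PGC-1 targets (28), unfolded protein response and amino acid stress (32), cytosolic chaperones (15), ion channels (36) and G-protein signalling (35) also had 0 called. At the share of 0.323% over all probes, 0 is the likely count in such lists. In G-protein signalling, the phosphodiesterase Pde4b was just outside the threshold, at -0.15 in Sir2OE1 and 1.21 in Sir2OE2 with limma adjusted p = 0.0539. The other probe of Rgs3 stood for that gene in the list. With the probe of highest number for each gene, 12 genes were called, Rgs3 and Ucn3 being added.

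**Figure D5:**
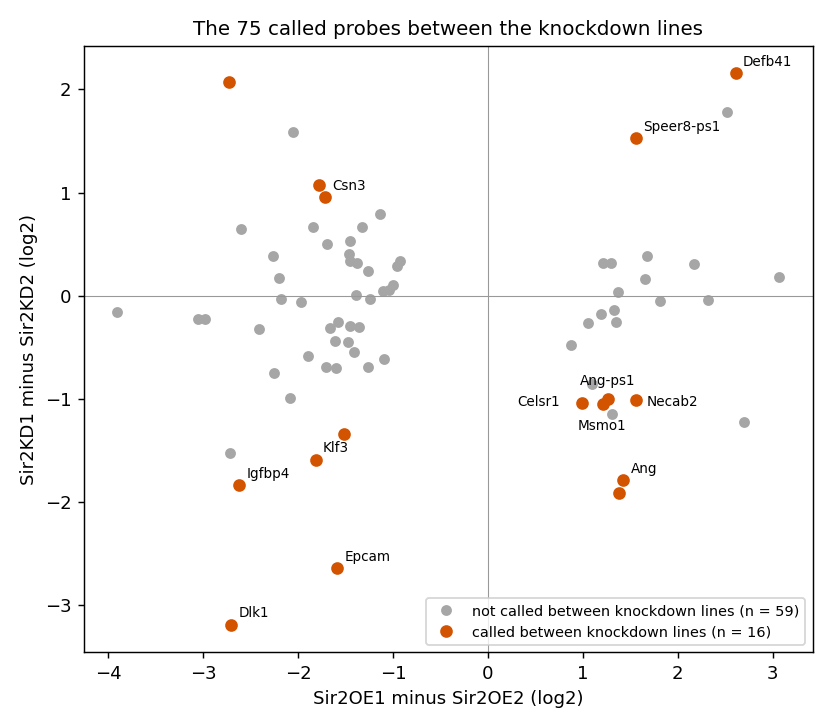
Sir2OE1 minus Sir2OE2 (horizontal axis) and Sir2KD1 minus Sir2KD2 (vertical axis), both on the log2 scale, for the 75 probes called between the overexpressing lines, with the 16 that were also called between the knockdown lines marked and named where they have 1 gene name. Dlk1 (-2.70 and -3.19), Epcam (-1.59 and -2.64) and Defb41 (2.61 and 2.15) are marked points with the same sign on both axes, and Ang (1.43 and -1.79) is one with opposite signs.

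The 75 probes were then read in the knockdown arrays, whose values had no part in the size of the difference between the overexpressing lines. Between Sir2KD1 and Sir2KD2, 16 of the 75 were called, 21.3%, where 0.689% of all probes were. By size alone, 20 of the 75, 26.7%, differed by at least 1 between the knockdown lines, beside 6.97% of all probes. Since 1 estimate of the spread served both comparisons, probes with little spread were more easily called in either. The median absolute difference between the knockdown lines was 0.45 for the 75 and 0.26 for all probes. Against mU6pro, 32 of the 75 were called in Sir2KD1, where 3.59% of all probes were, and 20 in Sir2KD2, where 1.34% were.

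Of the 75, Dlk1 had the largest difference between the knockdown lines, at -4.07 in Sir2KD1 and -0.88 in Sir2KD2, a difference of -3.19 ± 0.19 (SE, n = 3 and 4 arrays) with limma adjusted p = 0.000176. Epcam was at -2.18 and 0.45, with a difference of -2.64 and adjusted p = 0.000606 by limma. Defb41 was at -0.05 and -2.20, a difference of 2.15. Others called between the knockdown lines were Igfbp4, Klf3, Speer8-ps1, Csn3, Msmo1, Celsr1, Necab2, Ang and Ang-ps1. Ang was at -1.51 in Sir2KD1 and 0.28 in Sir2KD2, and Csn3 at 2.77 and 1.82. The signs of the 2 differences have no common meaning, since the numbering of lines is arbitrary. The knockdown lines carry a different vector and control, so a transcript called in both comparisons separated sister lines of either kind.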

How the data were processed

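RNA of MIN6-derived lines had been hybridised on two-colour arrays. As deposited, each value is a log2 channel ratio, which was read off the values themselves. The sources used here give no scanner software, normalization or ratio direction. Of 23232 probes, 16885 had 1 gene symbol in the platform annotation of 2007, 143 had several and 6204 none. Entrez identifiers gave a current symbol for 16205 probes from the GRCm38.p6 gene table, used for names only. The sign was changed on arrays whose channel 1 held the line. Testing needed at least 2 values per line. The model covered all 14 arrays (lmFit and eBayes of limma 3.58.1, R 4.3.3), with a coefficient per line and a dye term for each kind, and 8 residual degrees of freedom. P-values were adjusted by the Benjamini-Hochberg method at 0.05. On simulated data with 23230 probes, the fit recovered 19% of differences of 1 and 64% of differences of 2. It also called 9 probes that had been left unchanged, although the simulated noise was independent between arrays. A set of 329 probes had the same percents (within 1) on at least 5 overexpression arrays. These probes stayed in the fit, the adjustment and the list counts, and were left out when genes were named by size. Of the called probes, 0 belonged to this set. Named were the 15 genes of largest called difference per direction whose arrays did not overlap, called members of the gene lists, genes called on opposite sides in the lines, and Sirt1. Other called genes, Sirt3, and uncalled members of lists were chosen after their values were seen. The members and lists were chosen with earlier results of these data known.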

Additional observations from a re-analysis of the deposited data

Results flagged for a closer look

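The lines passed the test against the Neo pool on opposite sides for 8 probes. The difference itself was also called for each, which those tests nearly fixed in advance. Sir2OE1 minus Sir2OE2 was -2.70 for Dlk1, -1.72 for Csn3, -1.47 for Upp1, -1.47 for Gsdma and -1.35 for Pttg1. It was 1.37 for Rgs3, 2.61 for Defb41 and 2.32 for a probe without a single gene name. In 5 of the named genes 1 of the 4 Sir2OE2 arrays stood apart from the other 3 by Dixon's test. The array apart was the highest for Ucn3 (0.92), Pttg1 (0.70) and Klf3 (2.05) and the lowest for Csn3 (0.71) and Speer8-ps1 (-1.91). Chance alone sets an array apart in about 1 of 20 groups, and 40 genes were examined.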

How the results depend on the processing

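The 75 calls moved with the fit. With no dye term 282 were called, with array weights 171, with the 7 overexpression arrays alone 23 and with values not turned 0 (1659 at an unadjusted p under 0.05). Without 1 array the count lay between 18 and 42. With slide number as a replicate block 0 were called (1484 at an unadjusted p under 0.05), with 3 residual degrees of freedom left. Deviations of same-numbered slides had r of -0.38, -0.06 and -0.27. The deposited values of each probe sum to 0 over all overexpression arrays but Sir2OE1 slide 2, which constrains these r. They therefore cannot show whether the numbers pair the arrays. A dye term for each line gave 57, robust moderation 73, median centring 75, quantile normalization 74 and leaving out shared ratios 75. Against the pool, 247 were called in Sir2OE1, 628 with no dye term, 104 on 7 arrays, 0 not turned, and 47 to 221 across the fits without 1 array. In Sir2OE2 653 were called, 1190 with no dye term, 3266 with array weights, 0 not turned, and 317 to 675 without 1 array. The 57 turned calls of the fit with a dye term for each line became 12 on 7 arrays, 9 with array weights and 5 to 14 without 1 array, and could not be fitted without Sir2OE1 slide 3. With values not turned, Ucn3 (0.026), Prss23 (-0.21) and Sult1d1 (-0.074) reversed, none of them called there. The cause of these moves was not tested. Of the 75, 70 differed by at least 1. The number of arrays limits the precision, and signal over background is unknown.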
